A study of Mus musculus with 9 samples.

Results

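Cell cycle and proliferation genes are the subject here: 42 genes taken by symbol from a fixed list, all 42 of which were found among the 14862 genes of the table. No measured value enters the rule, although the list was drawn up with earlier results of these data known. The RNA came from dendritic cells sorted out of spleens of C57Bl/6 mice 8 to 12 weeks old, with no genotype change or treatment given in the labels. There were 3 groups with 3 libraries each: cDC1, the conventional dendritic cells that cross-present antigen; cDC2, the conventional dendritic cells that mainly serve CD4 T cells; and mcDC, a name the labels do not expand. The labels name neither the sort markers nor whether animals were pooled, nor whether replicates are separate animals. The p-values below therefore weigh differences against a spread among libraries that may be technical.

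A dividing cell first licenses its replication origins and builds its DNA precursors under the E2F transcription factors, then copies its DNA, and then makes the cyclins, kinases, kinetochore proteins and motors of mitosis under the DREAM, MYBL2 and FOXM1 complexes. Conventional dendritic cells of the spleen are short-lived and are renewed from dividing precursors, and some divide within the spleen itself. Transcripts of these genes in a sorted bulk sample therefore reflect how many cells cycle as well as how much RNA each of them holds, and fewer cycling cells and less RNA per cell cannot be told apart here.

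Depth, recovered from the steps of the values, was lower in mcDC (5.14 to 8.22 M reads) than in cDC1 (9.68 to 11.01 M) or cDC2 (9.19 to 12.43 M). Identity markers of cDC1 and cDC2 followed the labels: Cd8a, a cDC1 marker of the spleen, was at 306 to 346 RPKM (reads scaled by gene length and by library size) in cDC1, 1.22 to 1.41 in cDC2, against 3.72 to 9.68 in mcDC. Itgam, the CD11b chain that marks cDC2, was at 80.9 to 117 RPKM in cDC2, 2.61 to 3.99 in cDC1 and 10 to 16.4 in mcDC. Other markers placed mcDC differently. The sum of 5 cDC2 markers was 718 to 789 RPKM in cDC2, 292 to 416 in mcDC and 21.6 to 62.7 in cDC1. Of these, Clec4a4 overlapped between mcDC (28.1 to 77.9) and cDC2 (67.8 to 83.8). The sum of 6 cDC1 markers was 971 to 1141 RPKM in cDC1, 209 to 352 in mcDC and 135 to 150 in cDC2. Of these, Batf3 was at 143 to 249 in mcDC and 167 to 176 in cDC1. The chi-square per degree of freedom between replicate libraries was 9.8 to 62.1, so no pair agreed within counting noise. The library mcDC replicate 3, the shallowest, stood apart: its Pearson correlations with the other mcDC libraries across genes, which are not independent replicates, were 0.898 and 0.924, against 0.961 to 0.99 for other replicate pairs.

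The promoters of cell cycle genes carry the letters read by those regulators, and 6 are printed here because the replication and the mitosis genes, described below, sat differently in mcDC. They cover the 250 bases before the RefSeq start in build GRCm38.p6, 5′ to 3′ on the gene's strand, while the data were mapped to another build. They belong to the 3 replication and the 3 mitosis members that followed the other members most closely over the libraries and hold the E2F or the CHR letters in this window, a choice made after the values were seen. Capitals mark the E2F letters (TTTCCCGC, TTTCGCGC, TTTGCCGC or TTTGGCGC), the CHR letters (TTTGAA), which DREAM and MYBL2 complexes read, and CCAAT, read by NF-Y, each on either strand. Mcm5 (chr8:75109259-75109508, plus strand), Cdc6 (chr11:98907901-98908150, plus strand) and Mcm7 (chr5:138171884-138172133, minus strand) serve replication. Cdc20 (chr4:118437344-118437593, minus strand), Top2a (chr11:99024190-99024439, minus strand) and Mki67 (chr7:135716380-135716629, minus strand) serve mitosis.
Mcm5: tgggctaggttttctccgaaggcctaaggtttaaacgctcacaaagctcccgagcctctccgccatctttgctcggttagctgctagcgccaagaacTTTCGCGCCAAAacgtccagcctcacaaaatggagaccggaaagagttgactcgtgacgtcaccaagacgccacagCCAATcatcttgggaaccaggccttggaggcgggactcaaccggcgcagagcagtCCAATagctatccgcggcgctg
Cdc6: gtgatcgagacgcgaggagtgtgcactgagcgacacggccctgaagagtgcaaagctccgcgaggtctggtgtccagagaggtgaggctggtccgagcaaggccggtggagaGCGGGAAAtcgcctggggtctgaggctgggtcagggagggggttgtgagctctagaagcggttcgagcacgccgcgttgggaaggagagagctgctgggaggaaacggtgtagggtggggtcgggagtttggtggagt
Mcm7: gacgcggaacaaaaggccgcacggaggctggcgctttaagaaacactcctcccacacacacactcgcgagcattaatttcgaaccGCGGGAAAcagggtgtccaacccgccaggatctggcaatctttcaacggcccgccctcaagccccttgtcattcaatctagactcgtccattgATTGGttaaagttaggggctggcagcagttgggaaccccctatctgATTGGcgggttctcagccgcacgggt
Cdc20: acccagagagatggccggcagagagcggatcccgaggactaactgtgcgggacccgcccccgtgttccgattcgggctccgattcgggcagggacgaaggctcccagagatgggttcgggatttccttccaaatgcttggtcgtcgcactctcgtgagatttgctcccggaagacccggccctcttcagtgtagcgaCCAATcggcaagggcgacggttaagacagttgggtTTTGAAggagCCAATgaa
Top2a: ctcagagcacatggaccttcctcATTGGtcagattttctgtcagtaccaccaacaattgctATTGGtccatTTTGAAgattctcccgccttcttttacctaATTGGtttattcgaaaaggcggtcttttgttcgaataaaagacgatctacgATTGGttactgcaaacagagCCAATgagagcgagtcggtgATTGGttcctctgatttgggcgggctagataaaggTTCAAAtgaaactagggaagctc
Mki67: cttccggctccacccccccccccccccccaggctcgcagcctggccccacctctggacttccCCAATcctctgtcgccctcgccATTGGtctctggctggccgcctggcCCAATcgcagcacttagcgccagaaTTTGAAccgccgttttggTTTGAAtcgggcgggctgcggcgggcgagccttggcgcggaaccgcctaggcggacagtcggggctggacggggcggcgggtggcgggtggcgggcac

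In Mcm5 E2F letters of both strands overlap in a single stretch. In Cdc20 the CHR letters lie near the start, between CCAAT boxes. Of the 34 members with a promoter in the RefSeq table, the E2F letters were found in 4 of 12 replication genes (33.3%), 1 of 18 mitosis genes (5.56%) and 2.16% of all 27025 genes of that table. The CHR letters were found in 2 of 12 replication genes, 7 of 18 mitosis genes (38.9%) and 18.3% of all genes. CCAAT was found in 9 of 12, 16 of 18 (88.9%) and 37.5%. A match describes the letters alone, and no binding was measured.

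Members were expressed in each subset at low to moderate levels. Per length, 21 of 42 had a mean above 10 RPKM over the 9 libraries, and 39 of 42 were above 1 RPKM in all 9. Pcna, the sliding clamp of the replication fork, had the highest level at 112 to 208 RPKM. Ccne2, a cyclin that drives entry into S phase, had the lowest mean at 0.921 RPKM. The median member rested on 136 to 357 reads per library, and 15 of the 378 member values rested on fewer than 50 reads. The 42 members passed the filter of 1 RPKM in at least 2 libraries and were tested.

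None of the 42 genes differed between subsets at an adjusted p of 0.05 with limma, a linear model across all 11971 genes on log2(RPKM + 1). Between cDC1 and cDC2 the count was 0 of 42 where 19.6% of all genes passed. Between mcDC and cDC1 it was 0 of 42 against 15.4%, and between mcDC and cDC2 0 of 42 against 3.66%. With voom on the recovered reads the counts were also 0, 0 and 0. At an unadjusted p under 0.05 limma gave 4 members between cDC1 and cDC2 (29.8% of all genes), 3 between mcDC and cDC1 (29%) and 5 between mcDC and cDC2 (16.7%). The libraries of the groups did not overlap at 5 of 42 members in each comparison, where 46.1%, 30.5% and 21.6% of all genes did not.

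The intervals say how large a difference these libraries could still hold. The 95% interval of the log2 fold change, not adjusted for the number of genes, lay within 2-fold in either direction for 38 of 42 members between cDC1 and cDC2 (65.8% of all genes). It did so for 35 of 42 between mcDC and cDC1 (66.7%) and 35 of 42 between mcDC and cDC2 (73.5%). The median log2 fold change of the members was 0.12 in cDC1 over cDC2, 0.00 in mcDC over cDC1 and 0.04 in mcDC over cDC2, beside -0.02, 0.09 and 0.06 for all genes tested. The members' medians turned with single libraries. In cDC1 over cDC2 it was 0.23 without cDC1 replicate 1 and -0.02 without cDC1 replicate 2. In mcDC over cDC1 it was -0.16 without cDC1 replicate 1 and 0.07 without cDC1 replicate 2, and in mcDC over cDC2 it ran from -0.04 without cDC2 replicate 1 to 0.11 without mcDC replicate 1. Scaling by the median of ratios moved the median of all genes between mcDC and cDC1 from 0.09 to -0.03 and that of the members from 0.00 to -0.12. Ccnb1, Foxm1 and Ccne1, described below, had the widest intervals.

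**Figure D1:**
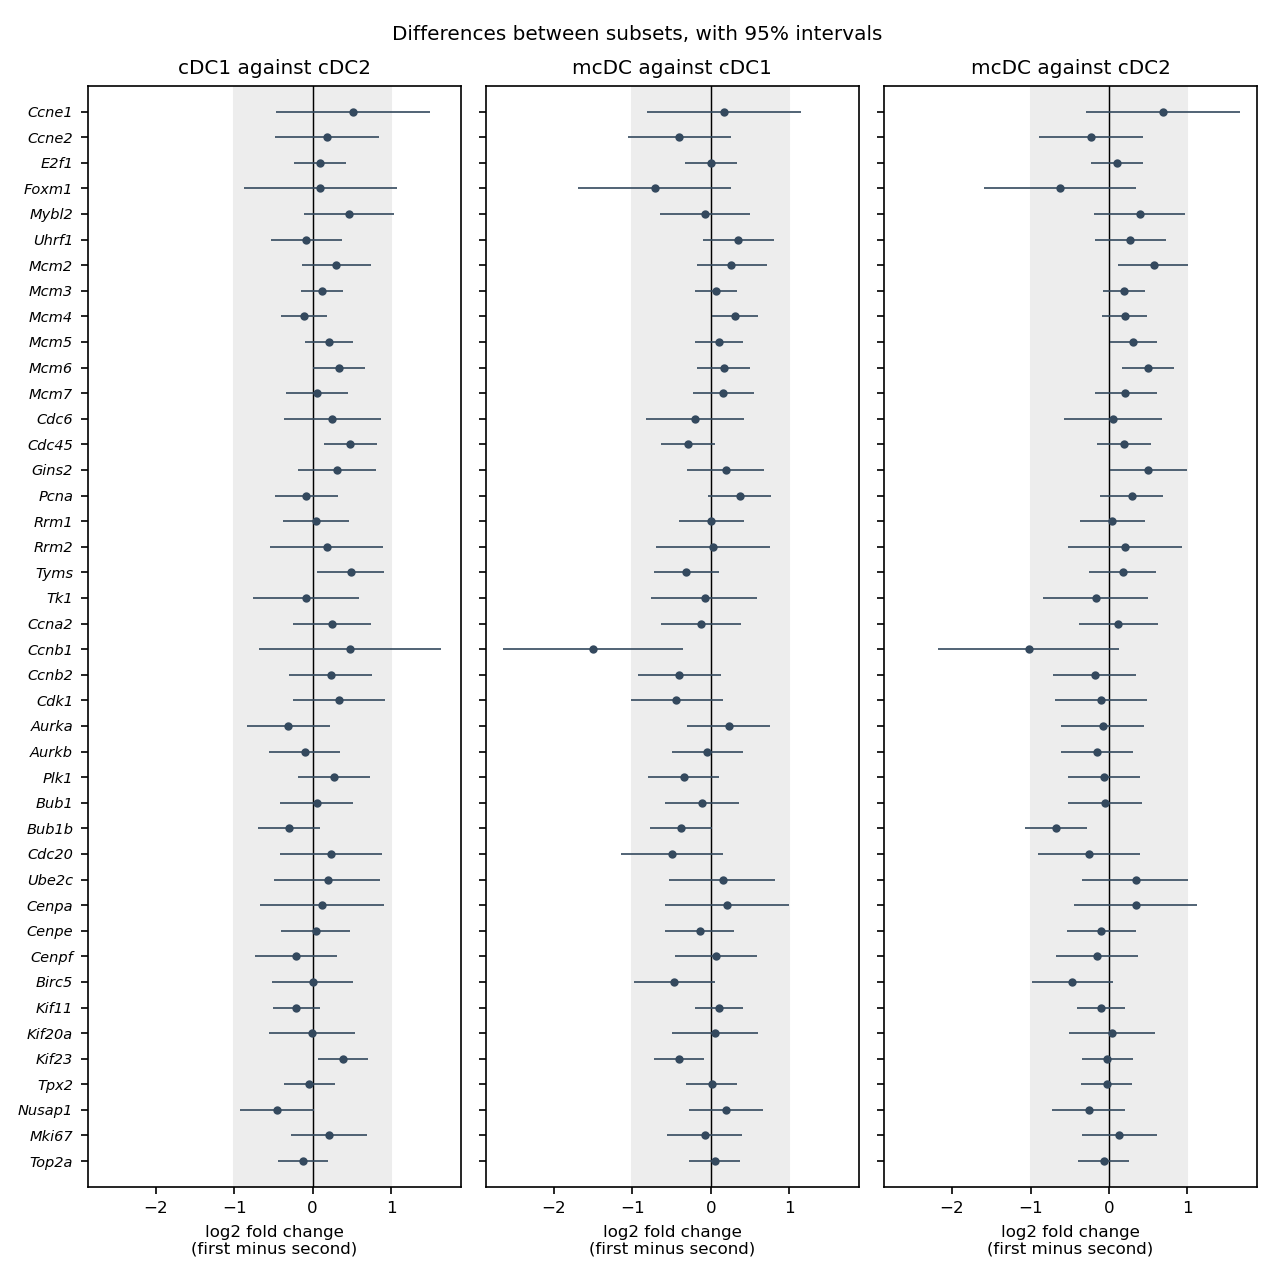
Log2 fold change on the log2(RPKM + 1) scale of each of the 42 members in the 3 comparisons, first group minus second, with points for the estimate and bars for the 95% interval from limma. The grey band spans 2-fold in either direction; it holds 38, 35 and 35 of the 42 intervals, and Ccnb1 lies farthest from 0 at -1.50 between mcDC and cDC1.

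Regulators of the G1 to S step differed between subsets at 0 of 6 by the test. Ccne1, the E-type cyclin that activates CDK2, was at 2.74, 6.77 and 6.27 RPKM in cDC1 replicates 1, 2 and 3, 2.0, 3.95 and 3.86 in cDC2, with mcDC at 2.48, 7.07 and 9.73. Replicate 1 was the lowest of each subset and the ranges overlapped (mcDC over cDC2 log2 fold change 0.69 ± 0.44 SE, interval -0.29 to 1.67, limma adjusted p = 0.48). That difference was 1.16 without mcDC replicate 1, 0.35 without mcDC replicate 3 and 0.45 without cDC2 replicate 1, and passed in none of these. E2f1, the activator of replication genes, was among the most even members, at 7.32 to 9.98 RPKM over all 9 libraries. Mybl2, which switches the DREAM repressor into an activator, was at 5.22, 4.95 and 4.85 RPKM in cDC1, 2.79, 3.56 and 3.73 in cDC2, against 3.51, 3.64 and 7.82 in mcDC. Its cDC1 and cDC2 libraries did not overlap, and the difference did not pass (0.47 ± 0.26, limma adjusted p = 0.27). It passed without mcDC replicate 3, within a range of 0.030 to 0.55 over the alternatives. Uhrf1, which carries DNA methylation through replication, was at 11.9 to 21.0 RPKM in cDC1, 15.4 to 18.2 in cDC2, with mcDC at 16.9 to 22.9.

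Foxm1 and Ccne2 were low in a single library. Foxm1, the forkhead factor that activates mitotic genes, was at 6.95, 7.83 and 4.77 RPKM in cDC1, 5.10, 6.44 and 6.33 in cDC2, against 5.28, 6.38 and 0.979 in mcDC. The value in mcDC replicate 3 rested on 22 reads, and the other mcDC libraries lay within the range of the conventional subsets. Ccne2 had 0 reads in mcDC replicate 3, which allows up to 0.176 RPKM (3 reads, counting error alone), and 0.733 to 1.40 RPKM in the other 8 libraries.

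Genes of origin licensing and the replication fork had a positive log2 fold change in mcDC over cDC2 at 10 of 10 and over cDC1 at 8 of 10, although 0 passed. Of all genes, 57.9% and 60% were positive in these comparisons. The MCM2 to MCM7 proteins form the ring that unwinds DNA. Mcm2 was at 18.7, 19.3 and 23.5 RPKM in cDC2, 25.2, 30.3 and 37.6 in mcDC and 19.3, 29.2 and 29 in cDC1. Mcm6 was at 21.6, 22.5 and 23.6 RPKM in cDC2, 26.2, 39.3 and 32.7 in mcDC and 26.3, 29.9 and 30 in cDC1. For each of these genes the mcDC libraries lay above the cDC2 libraries without overlap. The log2 fold changes over cDC2 were 0.57 ± 0.20 for Mcm2 (limma adjusted p = 0.17) and 0.50 ± 0.15 for Mcm6 (adjusted p = 0.11). Without mcDC replicate 1, Mcm6 passed (adjusted p = 0.021, and 0.021 to 0.33 over the alternatives).

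The other ring subunits had smaller differences. Mcm5 was at 23.2, 24.7 and 25.5 RPKM in cDC2, with mcDC at 27.7, 33.9 and 30.4, again without overlap (0.31 ± 0.14, limma adjusted p = 0.29). Mcm3, Mcm4 and Mcm7 differed between mcDC and cDC2 by 0.19 to 0.21 on the log2 scale. At Mcm4 the mcDC libraries (25.9, 33.1 and 28.6 RPKM) lay above those of cDC1 (21.3, 24.8 and 24) without overlap (0.31 ± 0.13, adjusted p = 0.15). Pcna was at 112, 119 and 138 RPKM in cDC1, 122, 120 and 146 in cDC2, against 130, 148 and 208 in mcDC, and the groups overlapped, although mcDC was the highest of the 3 libraries of each replicate number. Cdc45, which joins the ring to form the active helicase, was at 5.93, 6.48 and 7.55 RPKM in cDC1, 4.03, 4.67 and 4.71 in cDC2, with mcDC at 4.87, 5.62 and 5.22. The 3 subsets did not overlap at Cdc45 in any pair, with cDC1 the highest and cDC2 the lowest. It came closest of all members to passing between cDC1 and cDC2 (0.48 ± 0.15, interval 0.14 to 0.82, adjusted p = 0.054), and it passed in 7 of 19 alternatives, including the one without mcDC replicate 3, with 0.015 to 0.20 over the alternatives.

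Gins2, a subunit of the same helicase, was at 6.04, 6.90 and 7.95 RPKM in cDC1, 4.50, 5.35 and 6.43 in cDC2, against 9.59, 9.52 and 5.61 in mcDC. The libraries mcDC 1 and 2 were the highest of the 9, while mcDC replicate 3 lay within cDC2. The difference from cDC2 was 0.50 ± 0.22 (limma adjusted p = 0.29). Without mcDC replicate 3 it was 0.73 and passed, and over the alternatives the adjusted p was 0.014 to 0.60. Cdc6, which loads the ring at origins, was at 1.93, 4.50 and 5.48 RPKM in cDC1, 2.64 to 3.21 in cDC2, with mcDC at 2.87 to 3.44.

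Enzymes of DNA precursor supply overlapped between subsets at 3 of 4 genes. Of all genes, 46.1% did not overlap between cDC1 and cDC2, the comparison in which Tyms did not. Rrm2, the regulated subunit of ribonucleotide reductase, was at 13.1, 32.5 and 31.5 RPKM in cDC1, 17.3, 21.2 and 25.1 in cDC2, against 20.9, 31.9 and 21.6 in mcDC. Replicate 1 was again the lowest in each subset. Tyms, thymidylate synthase, did not overlap between cDC1 (5.08, 5.73 and 5.98 RPKM) and cDC2 (3.50, 4.29 and 3.36), a difference of 0.49 ± 0.19 that did not pass (limma adjusted p = 0.11). Rrm1 was at 14.8 to 24.9 RPKM over all libraries. Tk1, thymidine kinase, was at 18.6 to 28.2 RPKM in the conventional subsets and at 26.2, 30.8 and 12.1 in mcDC, with replicate 3 the lowest of the 9.

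Mitotic cyclins, kinases and checkpoint genes had a lower mean in mcDC than in cDC1 at 8 of 9 and than in cDC2 at 8 of 9, and 0 passed. Of all genes, 60% and 57.9% had a positive log2 fold change in these comparisons. Ccnb1, the cyclin whose complex with CDK1 starts mitosis, had the largest difference of any member. It was at 6.74, 11.8 and 8.91 RPKM in cDC1, 4.27, 6.29 and 8.5 in cDC2, with mcDC at 3.25, 6.20 and 0.419. The mcDC libraries lay below those of cDC1 without overlap, but the lowest rested on 5 reads. The log2 fold change against cDC1 was -1.50 ± 0.51 (interval -2.65 to -0.35, limma adjusted p = 0.082). Without mcDC replicate 3 it was -0.85 and did not pass. Without mcDC replicate 2 it was -2.02 and passed, with an adjusted p of 0.025 to 0.24 over the alternatives.

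Bub1b, the checkpoint kinase that holds back anaphase, was at 10.4, 12.5 and 9.95 RPKM in cDC1, 12.2, 14.1 and 14.6 in cDC2, against 9.33, 9.25 and 6.19 in mcDC. The mcDC libraries were the lowest 3 of the 9 (against cDC2 -0.68 ± 0.18, interval -1.07 to -0.28, limma adjusted p = 0.075). The call changed with 4 of 19 alternatives, among them leaving out mcDC replicate 1, with 0.037 to 0.26 over the alternatives. Cdk1, the kinase partner of the mitotic cyclins, was at 5.30, 8.66 and 7.50 RPKM in cDC1, 3.95, 6.25 and 6.18 in cDC2, with mcDC at 3.31, 6.47 and 5.50. Ccna2 was at 8.62 to 15.6 RPKM, Ccnb2 at 9.45 to 19.5, Plk1 at 4.50 to 8.90, Aurka at 4.10 to 7.95, Aurkb at 9.01 to 14.8 and Bub1 at 2.79 to 5.34, each with overlapping subsets.

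Cdc20 and Ube2c work with the anaphase-promoting complex, which marks mitotic proteins for destruction. Cdc20 was at 7.94, 13.8 and 9.77 RPKM in cDC1, 6.15, 8.22 and 12.5 in cDC2, against 5.72, 9.87 and 6.10 in mcDC. Ube2c was at 13.8, 29.8 and 25.6 RPKM in cDC1, 13.7, 20.7 and 24.8 in cDC2, with mcDC at 20.7, 22.8 and 30.9. Both were lowest in replicate 1 of each subset. Of the centromere genes, Cenpa, the histone that marks the centromere, was at 8.62 to 15.1 RPKM in 8 libraries and at 25.6 in mcDC replicate 3. Birc5 (survivin, of the chromosomal passenger complex) was at 2.91 to 7.25 RPKM, Cenpe at 3.18 to 5.51 and Cenpf at 1.36 to 3.17.

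Of the spindle genes, Kif23, a motor that bundles the midzone for cytokinesis, was at 23.7, 26.0 and 27.3 RPKM in cDC1, 17.7, 19.7 and 20.6 in cDC2, against 17.4, 17 and 23.2 in mcDC. The cDC1 libraries were the highest 3 of the 9. The difference did not pass against cDC2 (0.39 ± 0.14, limma adjusted p = 0.092) or mcDC (-0.41 ± 0.14 in mcDC, adjusted p = 0.085). Without mcDC replicate 3 it passed in both comparisons. Nusap1, a spindle microtubule protein, was at 5.21, 6.86 and 7.80 RPKM in cDC1 and 7.60, 9.99 and 10.7 in cDC2 (-0.46 ± 0.21, adjusted p = 0.18). Kif11, Kif20a and Tpx2 differed by 0.21 or less in any comparison. Top2a, which untangles sister chromosomes, was at 22.4 to 31.8 RPKM. Mki67, which coats mitotic chromosomes and is the usual stain for cycling cells, was at 19.8, 35 and 31.3 RPKM in cDC1, 20.8, 28.3 and 23.6 in cDC2, with mcDC at 22.7, 30.1 and 26.9. Its difference between any pair of subsets was 0.21 or less on the log2 scale.

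**Figure D2:**
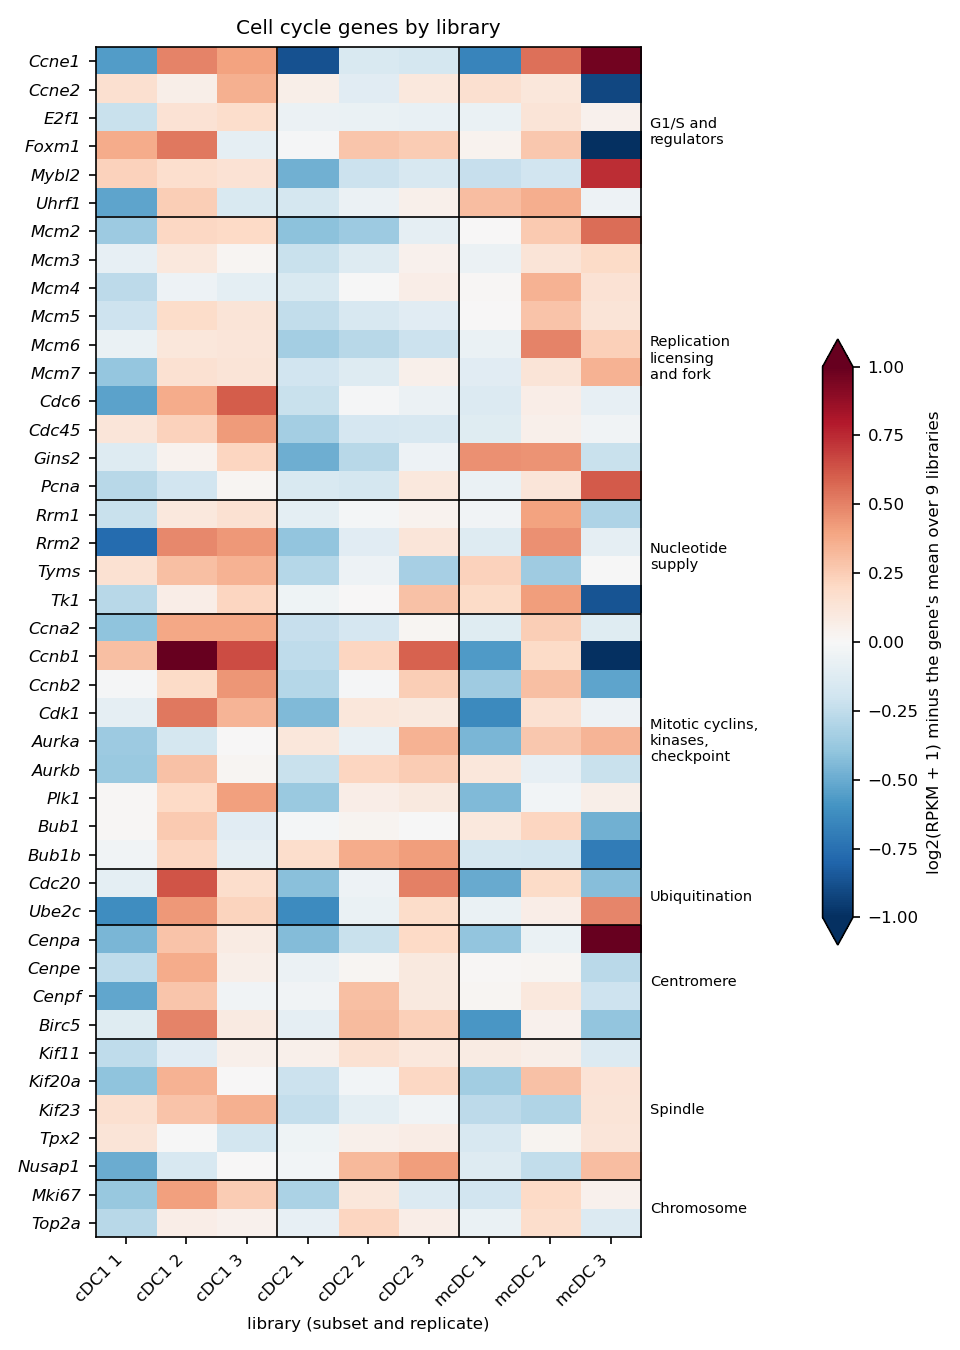
Each row is a member and each column a library; colour is log2(RPKM + 1) minus the gene's mean over the 9 libraries, and values past 1 in either direction take the end colour. Replicate 1 is the lowest of its subset at 36 of 42 genes in cDC1, 37 of 42 in cDC2 and 24 of 42 in mcDC.

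The members varied together between libraries of the same subset. The mean log2(RPKM + 1) of the 42 genes was 3.35, 3.79 and 3.72 in cDC1 replicates 1, 2 and 3, 3.33, 3.54 and 3.64 in cDC2, against 3.42, 3.70 and 3.47 in mcDC. Replicate 1 was the lowest in each subset, and the means over 3 libraries, 3.62 ± 0.23, 3.51 ± 0.16 and 3.53 ± 0.15 (SD), differed by less than this spread. The replicates follow runs of consecutive library titles, with a library of each subset in each run. Within runs 1, 2 and 3 the mean in cDC1 minus cDC2 was 0.02, 0.25 and 0.08, that in mcDC minus cDC1 was 0.07, -0.09 and -0.25, and that in mcDC minus cDC2 was 0.09, 0.16 and -0.17. The same mean over all 11971 genes tested stayed between 3.48 and 3.64.

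Replicate 1 was the lowest of its subset in all 3 subsets at 19 of 42 members, among them Mki67, Ccna2, Cdk1, Plk1, Rrm2 and the 6 Mcm genes, where 12.3% of all genes were. A term for the title run in the limma fit, added after the data were seen, passed at 0 of 42 members (0.267% of all genes), and at an unadjusted p under 0.05 at 13 (21.3%). After subtracting each subset's mean, 39 of 42 members had a positive Pearson correlation with the mean of the other members over the 9 libraries, with a median of 0.72. The median of the correlations of the 11929 other genes with the mean of the members was 0.00. These points share their library, depth and run, so the correlations are a description. Rrm2 (0.96), Mcm5 (0.95), Ccna2 (0.93) and Mcm4 (0.91) followed the rest most closely. Tyms (-0.19), Tpx2 (-0.15) and Mybl2 (-0.09) did not follow it.

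Markers of erythroid precursors, which divide in the mouse spleen, were also lowest in replicate 1 of each subset. So were the summed levels of the neutrophil markers below and of 8 markers of germinal centre B cells and plasmablasts. Of 15 markers 13 were in the table, and their summed level in replicates 1, 2 and 3 was 5.02, 163 and 148 RPKM in cDC1, 1.79, 19.9 and 14.9 in cDC2, with mcDC at 3.88, 117 and 71.6. Klf1, a transcription factor of the red cell lineage, was at 0 in cDC2 replicate 1 and mcDC replicate 1, at 0.0592 RPKM in cDC1 replicate 1, and at 0.419 to 12.2 in the others. In replicate 1 of the 3 subsets the mean of the members was 3.33 to 3.42, and Mki67 was at 19.8 to 22.7 RPKM. The other replicates did not keep the same order. In mcDC replicate 3 the members' mean was 3.47, near the 3.42 of replicate 1, while the erythroid sum was 71.6 against 3.88 RPKM. In cDC2 the members' mean rose from replicate 2 to replicate 3 (3.54 and 3.64), while the erythroid sum fell. The summed level of 12 neutrophil markers was 123, 932 and 1636 RPKM in cDC2, 7.23 to 48.8 in cDC1 and 1.55 to 44.8 in mcDC. The neutrophil precursor genes Elane and Mpo were at 0 in replicate 1 of each subset and at 4.54 RPKM or less elsewhere. Sums of other marker lists were not all lowest in replicate 1. That of 6 stem and progenitor markers, most of it Kit, was instead highest in replicate 1 of each subset. It was 80.1 to 117 RPKM there and 54.6 to 88.4 in the other libraries. The sum of 9 B cell markers was also highest in replicate 1 of each subset. For 11 T cell markers the sum was lowest in replicate 2 of both conventional subsets. The part of all these cells in the members' levels was not tested.

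**Figure D3:**
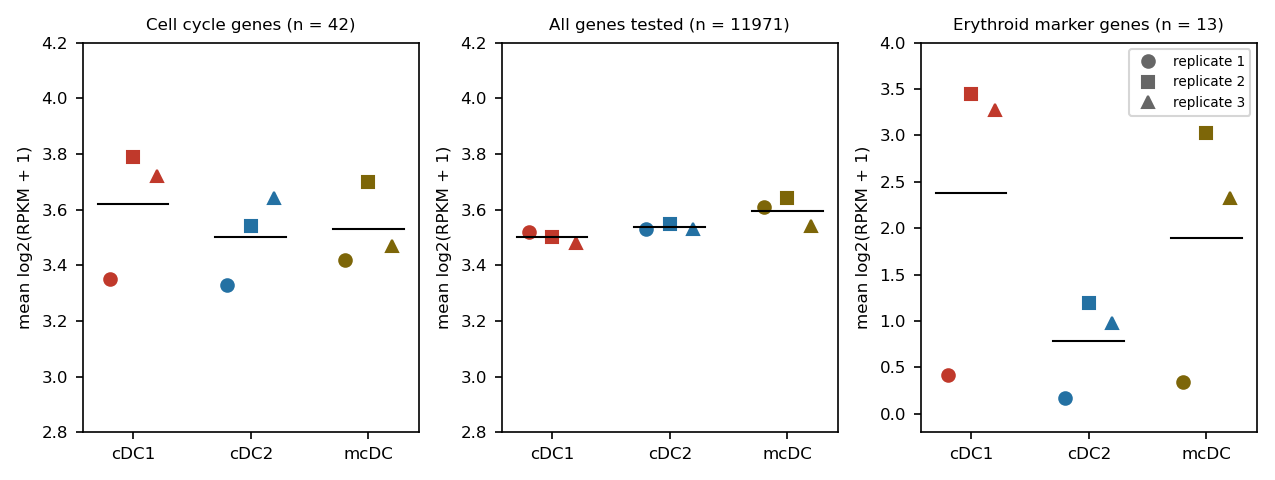
Mean log2(RPKM + 1) per library of the 42 cell cycle genes (left), all 11971 genes tested (middle) and 13 erythroid markers (right, another scale), with a symbol for each replicate and a line for the subset's mean. Replicate 1 (circles) is the lowest of each subset for the cell cycle genes (3.33 to 3.42) and for the erythroid markers (0.17 to 0.42).

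Replication genes stood higher relative to mitosis genes in mcDC than in either conventional subset. Over the 14 members of replication and precursor supply the mean log2(RPKM + 1) was 4.33, 4.55 and 4.36 in mcDC, 4.08, 4.47 and 4.52 in cDC1 and 4.06, 4.18 and 4.29 in cDC2. Over the 22 members of mitosis it was 3.08, 3.39 and 3.17 in mcDC, 3.11, 3.60 and 3.46 in cDC1 and 3.13, 3.40 and 3.50 in cDC2. The replication means of mcDC lay just above those of cDC2 and overlapped those of cDC1. With median-of-ratios scaling the replication means of mcDC and cDC2 overlapped (4.24 to 4.44 against 4.07 to 4.32). The mitosis means overlapped between all 3 subsets. The difference, replication minus mitosis, was 1.25, 1.16 and 1.19 in mcDC, 0.97, 0.87 and 1.07 in cDC1, and 0.93, 0.79 and 0.79 in cDC2. The 3 mcDC libraries thus lay above the other 6. Within runs 1, 2 and 3 the difference was higher in mcDC than in cDC1 by 0.28, 0.29 and 0.13, and than in cDC2 by 0.32, 0.37 and 0.40. This balance was set up after the values were seen and is a description without a test.

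Gene by gene, 13 of 14 replication members and 5 of 22 mitosis members had a positive log2 fold change in mcDC over cDC2 (57.9% of all genes). Their medians were 0.20 and -0.09, beside 0.06 for all genes. Against cDC1 the counts were 10 of 14 and 9 of 22 (60% of all genes), with medians of 0.09 and -0.09, beside 0.09. These counts turned with single cDC1 libraries: without cDC1 replicate 1 they were 6 of 14 (median -0.02) and 4 of 22 (-0.26), and without cDC1 replicate 2 they were 10 of 14 (0.18) and 13 of 22 (0.02). Against cDC2, with each library left out, they were 11 to 14 of 14 and 4 to 10 of 22, with medians of 0.14 to 0.30 and -0.15 to -0.03. With median-of-ratios scaling they were 11 of 14 and 4 of 22 against cDC2, and 6 of 14 and 4 of 22 against cDC1, where the median of the replication members turned to -0.05. Other genes of the same processes gave a like picture with some overlap. For 36 other replication genes and 48 other mitosis genes the difference of the means was 0.40, 0.54 and 0.80 in mcDC, 0.24, 0.29 and 0.44 in cDC1, and 0.22, 0.19 and 0.14 in cDC2. The mcDC libraries lay above those of cDC2, while mcDC replicate 1 lay below cDC1 replicate 3. The highest value, 0.80, was that of mcDC replicate 3. Without that library the median of the other mitosis genes moved from -0.20 to -0.04 against cDC2 and from -0.15 to -0.05 against cDC1. The median of the other replication genes moved from 0.28 to 0.21 and from 0.21 to 0.17.

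The mcDC libraries were shallower than the others, and some markers of other cells were higher in them. The summed level of 6 NK cell markers was 65.8 to 158 RPKM in mcDC, 36.3 to 54.9 in cDC1 and 25 to 42.6 in cDC2, and the NK receptor gene Ncr1 was at 21.4 to 32.2, 4.10 to 5.64 and 2.67 to 4.78. The summed level of 8 markers of germinal centre B cells and plasmablasts was 105 to 339 RPKM in mcDC, 105 to 247 in cDC1 and 20.6 to 42.5 in cDC2. In mcDC most of it was Jchain, at 85.6 to 274 RPKM. The part of these cells and of depth in the balance was not tested.

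**Figure D4:**
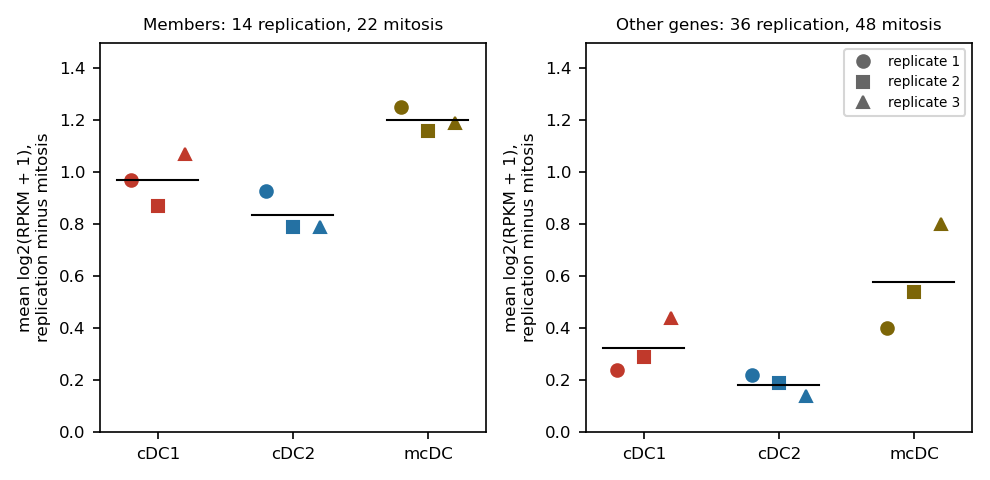
Mean log2(RPKM + 1) of replication genes minus that of mitosis genes in each library, for the 36 members (left) and for 84 other genes (right), with a line for the subset's mean. Among the members the mcDC libraries (1.16 to 1.25) lie above all cDC1 and cDC2 libraries (0.79 to 1.07); among the other genes mcDC replicate 1 (0.40) lies below cDC1 replicate 3 (0.44).

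Few other genes of replication and none of the other genes of mitosis passed the test. Of 36 other replication genes, 1 was higher in cDC1 than in cDC2, 1 higher and 1 lower in mcDC than in cDC1, and 1 higher in mcDC than in cDC2, with medians of 0.07, 0.21 and 0.28. Over all genes 19.6%, 15.4% and 3.66% were called in these comparisons. Hells, a chromatin remodeller needed for DNA methylation, made up 3 of these 4 calls. It was at 19.7, 25.1 and 18.6 RPKM in cDC1, 6.34, 7.70 and 6.95 in cDC2, against 11.3, 15.3 and 11.3 in mcDC, and the 3 subsets did not overlap. The log2 fold change of cDC1 over cDC2 was 1.46 ± 0.17 (limma adjusted p = 0.00025, 3.9e-05 to 0.0019 over the alternatives). That of mcDC over cDC1 was -0.70 ± 0.17 (adjusted p = 0.021), a call lost without cDC1 replicate 2 and in the fit of these groups alone. That of mcDC over cDC2 was 0.76 ± 0.17 (0.040), lost in 10 of 19 alternatives including the loss of any conventional library or of mcDC replicate 2. Gins3, a partner of Gins2, was higher in mcDC than in cDC1 (7.29 ± 0.24 against 4.47 ± 0.883 RPKM, adjusted p = 0.029). That call was lost in 10 of 19 alternatives, among them the scalings and the loss of cDC1 replicate 2 or 3, any cDC2 library, or mcDC replicate 1 or 2. Of 48 other mitosis genes limma called 0 in each comparison, with 2, 5 and 4 at an unadjusted p under 0.05 (29.8%, 29% and 16.7% of all genes), and medians of -0.08, -0.15 and -0.20.

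Some genes that set the G1 decision upstream of the members differed between subsets, in numbers that for several directions lay near the share over all genes. Of 34 cyclins, CDKs, inhibitors and RB, E2F and MYC family genes, 32 were tested. In cDC1 over cDC2, 3 were higher and 6 lower (8.85% and 10.7% of all genes), in mcDC over cDC1, 7 were higher and 2 lower (9.53% and 5.88%), and in mcDC over cDC2, 1 was higher and 0 lower (2.06% and 1.6%). Ccnd1, the growth-factor-induced D cyclin, was at 59.9, 43.1 and 46.3 RPKM in cDC1, 183, 163 and 147 in cDC2, with mcDC at 196, 160 and 95.9. It was lower in cDC1 than in cDC2 (-1.71 ± 0.24, limma adjusted p = 0.00088) and higher in mcDC than in cDC1 (1.53 ± 0.24, 0.0027). Ccnd2 was likewise lower in cDC1 than in cDC2 (3.69 ± 0.986 against 11.6 ± 3.72 RPKM, adjusted p = 0.0033).

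E2f2, an activator E2F, was at 4.70, 6.62 and 6.68 RPKM in cDC1, 23.1, 25.3 and 23.9 in cDC2, against 18.6, 19.5 and 16.2 in mcDC. It was lower in cDC1 than in cDC2 (-1.86 ± 0.15, limma adjusted p = 3.3e-05) and higher in mcDC than in cDC1 (1.46 ± 0.15, 0.00025). Its relative E2f1 had log2 fold changes of 0.10 and 0.00 in the same comparisons. Cdkn1a, the CDK inhibitor p21, went the other way, at 24.8, 26.5 and 28.9 RPKM in cDC1, 11.2, 8.09 and 10.3 in cDC2, with mcDC at 8.59, 9.35 and 9.35 (cDC1 over cDC2 1.36 ± 0.14, adjusted p = 0.00015; mcDC over cDC1 -1.45 ± 0.14, 0.00019). Neither gene's cDC1 libraries overlapped with the others.

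MYC family genes also differed between subsets. Mycl, the MYC relative that supports cDC1 function, was at 92.0, 101 and 94.2 RPKM in cDC1, 29.9, 24.1 and 20.9 in cDC2, against 40.5, 41.9 and 34.2 in mcDC. It was higher in cDC1 than in cDC2 (1.91 ± 0.14, limma adjusted p = 2.3e-05) and lower in mcDC than in cDC1 (-1.28 ± 0.14, 4e-04). Its call between mcDC and cDC2 (0.63 ± 0.14, adjusted p = 0.047) was lost in 12 of 19 alternatives, among them both scalings and the loss of any library other than cDC2 replicate 1 or mcDC replicate 3. Myc was at 9.06, 9.56 and 10.1 RPKM in cDC1, 11.5, 14 and 15 in cDC2, with mcDC at 17.9, 20.4 and 18.6, the highest 3 of the 9, and was higher in mcDC than in cDC1 (0.92 ± 0.13, adjusted p = 0.0018). Tfdp2, an E2F partner, was higher in cDC1 than in cDC2 (3.67 ± 0.371 against 1.72 ± 0.245 RPKM, adjusted p = 0.014), a call lost without cDC1 replicate 2, cDC2 replicate 2 or cDC2 replicate 3.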

How the data were processed

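RNA sequencing values of 9 libraries were deposited by the authors as RPKM in a single table and in 8 single-library files identical to their columns; 0 columns belonged to other samples. The unit is not named and was read from the values: 100% of nonzero values were whole reads (within 0.01) times a step per gene and library. Per the submitters' processing notes the build was mm8; the aligner, counter and annotation are not given in the sources used here. The library kit keeps strand, per the labels' protocols, but whether counting used it is not stated. 

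The test was limma 3.58.1 under R 4.3.3, in a single fit of the 3 groups to log2(RPKM + 1) with a variance trend, over 11971 genes above 1 RPKM in at least 2 libraries, with Benjamini-Hochberg adjustment and a threshold of 0.05. This scale understates fold changes of low genes. Of the gene numbers, 14847 were in the RefSeq table. All 42 members are named; from the other lists the 3 genes with the smallest adjusted p in each direction of each comparison are named. By a like rule promoters would have been printed for called members, and since none was called those shown were chosen otherwise. The members and lists were chosen with earlier results of these data known. Intervals and floors cover counting or library spread as stated. Code was tested on simulated data. Other steps used numpy 2.4.6, pandas 2.3.3 and matplotlib 3.10.9 under Python 3.11.15. Alternatives were other scalings, pseudocount, filters, fits, a replicate block by title run, voom on recovered reads and leaving out each library.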

Additional observations from a re-analysis of the deposited data

How the results depend on the processing

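The count of members called was 0 of 42 in each comparison and stayed at 0 with a pseudocount of 0.1, without a filter, with a filter of 5 RPKM (38 members tested) and with voom on recovered reads. Between cDC1 and cDC2 it was 1 with quantile normalization, median-of-ratios scaling or no variance trend (Cdc45 in each), where 19.9%, 20% and 19.1% of all genes passed. With these groups alone it was 5 (Cdc45, Kif23, Mcm6, Mybl2 and Tyms), against 31.1% of all genes. Between mcDC and cDC1 it was 1 with either scaling (Kif23), where 15% of all genes passed with each. Between mcDC and cDC2 it was 1 with either scaling (Bub1b), where 3.31% passed with quantile normalization and 3.88% with median-of-ratios scaling. With the title run as a replicate block it was 2 (Cdc45 and Kif23), 2 (Kif23 and Pcna) and 3 (Bub1b, Mcm2 and Mcm6), where 24.6%, 20.7% and 6.46% of all genes passed. With this replicate block and mcDC replicate 3 left out it was 6, 5 and 1, against 35.7%, 25.1% and 6.03% of all genes. In that last fit Tk1 turned from -0.08 to 0.41 between mcDC and cDC1 (adjusted p = 0.025). Leaving out each library gave 0 to 3 between cDC1 and cDC2, 0 to 1 between mcDC and cDC1 and 0 to 2 between mcDC and cDC2. Of all genes, 13% to 28.9%, 7.99% to 21.9% and 1.32% to 7.42% passed in these fits. The 3 came without mcDC replicate 3 (Cdc45, Kif23 and Mybl2, against 28.9% of all genes) and the 2 without mcDC replicate 1 (against 7.42%). In all, 28 of 42 members passed under no alternative. Of 2382 member results, 1 passed with its direction reversed. Changes of direction in results that did not pass were not counted. Uhrf1 between cDC1 and cDC2, for example, was at -0.08, and at 0.11 without cDC1 replicate 1. The cause of these changes was not tested.

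Libraries of a title run from different subsets had correlations of their deviations of 0.07 to 0.55 over 8358 genes, above 0.1 in 8 of 9 pairs, against -0.55 to 0.01 for other pairs, and 9 of 9 libraries correlated best with their own run. Each subset's mean was subtracted first, so higher values in same-run pairs force lower values in the other pairs. The other pairs are therefore no separate support for the pairing. What a title run shares is not stated, so the pairing is a hint from the data. The mean balance of replication over mitosis members was 1.20 in mcDC, 0.97 in cDC1 and 0.84 in cDC2. With a pseudocount of 0.1 it was 1.29, 1.03 and 0.88, and with median-of-ratios scaling 1.19, 0.97 and 0.84. In mcDC it lay at 1.18 to 1.22 with each mcDC library left out, which only averages the remaining mcDC libraries. Depth limits the lowest members: Ccne2 and Ccnb1 in mcDC replicate 3 rested on 0 and 5 reads.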
